A study of Rattus norvegicus with 12 samples.

Results

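Transcripts of the natriuretic peptide system were followed in differentiated iAM-1 cells given shRNAs against Sbk2, which encodes a serine/threonine kinase. The 8 genes, chosen by name from 32761 features, were the peptide genes Nppa and Nppb, the processing enzyme genes Corin, Furin and Pam, and the receptor genes Npr1, Npr2 and Npr3. Their identifiers in the files are ENSRNOG00000008176 (Nppa), ENSRNOG00000008141 (Nppb), ENSRNOG00000002302 (Corin), ENSRNOG00000011352 (Furin), ENSRNOG00000033280 (Pam), ENSRNOG00000014684 (Npr1), ENSRNOG00000015991 (Npr2) and ENSRNOG00000019184 (Npr3). Each of the 8 was found once and passed the filter on low values. iAM-1 cells derive from atrial myocytes of neonatal Wistar rats, immortalized so that growth can be switched off and the cells differentiated. All groups carry the LT-tsA58 large T antigen transgene listed among the features, and all were differentiated in medium with 2% serum and without doxycycline. The groups, of 3 samples each, were cells transduced with lentiviral Sbk2 shRNA 1, cells with Sbk2 shRNA 2, cells with the control ppluc shRNA, and untransduced cells. Vectors were added soon after differentiation had begun. The labels do not give the shRNA target sequences or expand the marks D9 and P10 in the titles.

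Atrial and B-type natriuretic peptides are cardiac hormones that promote the excretion of salt and water and relax vessels. Their precursors are cut to the active form by the proteases corin and furin. The receptor encoded by Npr1 makes cyclic GMP when either peptide binds, that of Npr2 does so mainly for the C-type peptide, and that of Npr3 clears the peptides from the surroundings. Nppa is a marker of atrial muscle, whose myocytes store its product in granules, and Nppb is widely read as a sign of cardiac stretch or stress.

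Nppb and Nppa lie side by side on chromosome 5. Nppb spans 164796185 to 164797531 and Nppa 164808323 to 164809705 in Rnor_6.0, the build in the submitters' processing notes, with 10791 bp between them. Their promoters are shown because these neighbours moved in opposite directions with the Sbk2 shRNAs against ppluc. The sequences are the 250 bases before each RefSeq start in GRCr8, on the + strand, at chr5:163711934-163712183 for Nppa and chr5:163699758-163700007 for Nppb. Capitals mark matches, on either strand, to the TATA box letters TATAAA, the GATA letters TGATAA and AGATAA, and the M-CAT letters CATTCC.
Nppa: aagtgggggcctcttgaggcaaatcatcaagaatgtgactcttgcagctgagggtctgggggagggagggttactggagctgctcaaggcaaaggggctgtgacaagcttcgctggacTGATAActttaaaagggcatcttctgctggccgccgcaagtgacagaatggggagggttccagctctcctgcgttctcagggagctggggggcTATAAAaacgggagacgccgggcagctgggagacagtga
Nppb: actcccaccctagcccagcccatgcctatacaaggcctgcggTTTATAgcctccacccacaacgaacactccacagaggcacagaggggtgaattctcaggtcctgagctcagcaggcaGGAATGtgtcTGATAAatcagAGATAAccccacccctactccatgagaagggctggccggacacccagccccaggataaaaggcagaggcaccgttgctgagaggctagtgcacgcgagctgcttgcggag
Nppa held TATAAA 39 bases before the start and TGATAA 132 bases before it. Nppb held AGATAA at 110 bases and TGATAA at 121 bases before the start, the M-CAT letters on the opposite strand at 131 bases and TATAAA on the opposite strand at 208 bases, and none of these matches overlapped. The letters searched for NKE (TNAAGTG), AP-1 (TGANTCA), the T-box (GGTGTGA) and the CArG box had no match in either window, which ran on to 50 bases after the start. Of 33469 promoter windows of that length, 14.2% held TATAAA, 11.6% AGATAA, 9.03% TGATAA and 14.2% CATTCC. NKE letters stood in 11.5% of them, AP-1 in 7.33%, T-box in 3.83% and CArG in 1.64%. The table holds 6 of the 8 genes, all but Furin and Npr2. The promoter of Pam held AGATAA on the opposite strand, 142 bases before the start, and those of Corin, Npr1 and Npr3 held none of the motifs searched.

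The deposited values are group averages, from which the whole read counts of single libraries were recovered by arithmetic. The 12 libraries held 30274847 to 47517427 assigned reads, so that 3 reads were worth 0.0631 to 0.0991 CPM (reads of a gene relative to all assigned reads of the library). Sbk2, the target, stood between 1.00 and 1.13 CPM with shRNA 1 and between 0.620 and 0.719 CPM with shRNA 2. It stood between 24.8 and 29.6 CPM with ppluc and between 42.6 and 47.3 CPM in untransduced cells. Whether a group's samples were separate cultures is not stated in the labels, and the p-values measure only the spread between these samples, which may be technical. In such bulk samples, fewer cells of a type and less RNA per cell cannot be told apart. Changes below are limma log2 differences of log2(CPM + 0.5), with the limma standard error after ±. That scale understates the change of low genes. A change given for both shRNAs is that of the mean of their groups, which each shRNA alone need not share.

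These cells carried transcripts of all 8 genes, at very unequal levels. On the length-scaled TPM of the authors' means, Nppa was the most abundant of all features in every group. Its level was 46069 TPM with shRNA 1, 33204 with shRNA 2, 66852 with ppluc and 45373 in untransduced cells. Nppb followed at 3590, 1731, 857.3 and 1232 TPM in the same order of groups, and Pam came next at 895.6, 636.3, 663.8 and 546.8 TPM. Npr3, Furin and Corin stood below, with 155.7, 109.7 and 69.63 TPM in untransduced cells. Corin was the lowest of these in every group, and Furin exceeded Npr3 with shRNA 1 (138.2 against 113.1 TPM). Npr1 and Npr2 were low, from 0.8234 to 6.05 TPM and from 1.881 to 4.669 TPM. The authors' means carry no spread, so close neighbours in this order, such as Npr3 and Furin with ppluc (163.4 and 153.8 TPM), were not tested against each other.

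**Figure D1:**
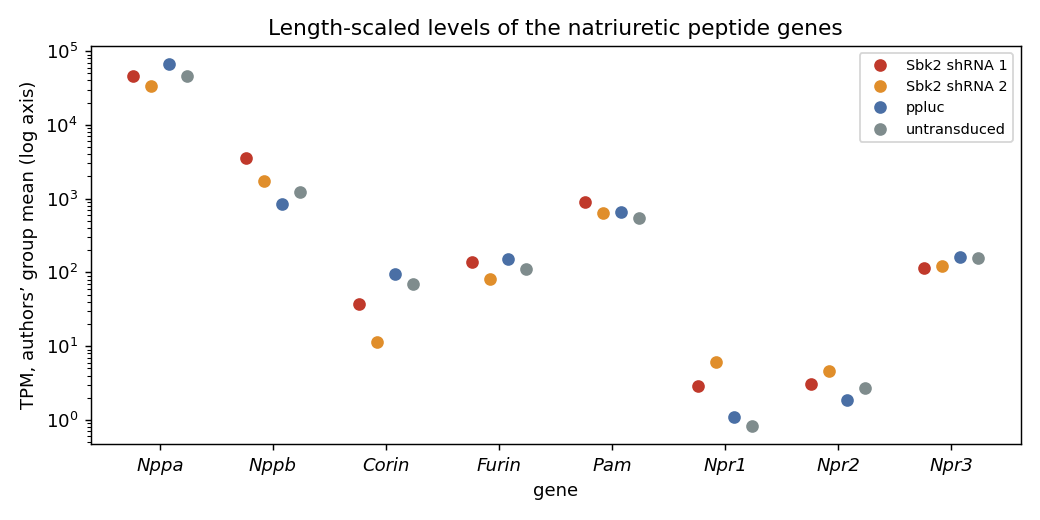
TPM of each gene (authors' group means, log axis) with Sbk2 shRNA 1, Sbk2 shRNA 2, ppluc and in untransduced cells. Nppa leads in all groups, Npr1 and Npr2 reach at most 6.05 TPM, and Corin spans the range from 11.44 to 96.51 TPM.

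For 6 of the genes, all but Nppa and Pam, the reads of every library were recovered without ambiguity. With both Sbk2 shRNAs against ppluc, 3 of these 6 rose (Nppb, Npr1 and Npr2) and 3 fell (Corin, Furin and Npr3), and each kept its direction with either shRNA alone and after trimmed-mean scaling. Calls were common in this comparison. Limma with Benjamini-Hochberg adjustment called 83.2% of 12493 tested genes, 64.4% higher and 18.8% lower, so that a call by itself does not set these genes apart. For 6 of the 6 genes the 6 knockdown libraries did not overlap the 3 of ppluc, as held for 52.4% of genes tested. After trimmed-mean scaling 38.5% of tested genes were called higher and 38.4% lower. With shRNA 1 alone, where all 6 again kept apart from ppluc, 73.4% of tested genes were called (54.7% higher, 18.7% lower) and 76.6% did not overlap. With shRNA 2 alone, where all 6 kept apart as well, the shares were 86.1% (65.0% higher, 21.1% lower) and 85.2%. Against untransduced cells, where 82.8% of tested genes were called (60.8% higher, 22.0% lower), both shRNAs together raised Nppb, Npr1 and Npr2 and lowered Corin and Npr3, and Furin did not pass. The median of all tested genes against ppluc was itself shifted by 0.37, and by 0.26 with shRNA 1 and 0.50 with shRNA 2. Trimmed-mean scaling of the library totals took this shift out (medians of 0.01 to 0.02), and a printed change is followed by its value after scaling where the call differs or the value moves by over 1.5 times.

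**Figure D2:**
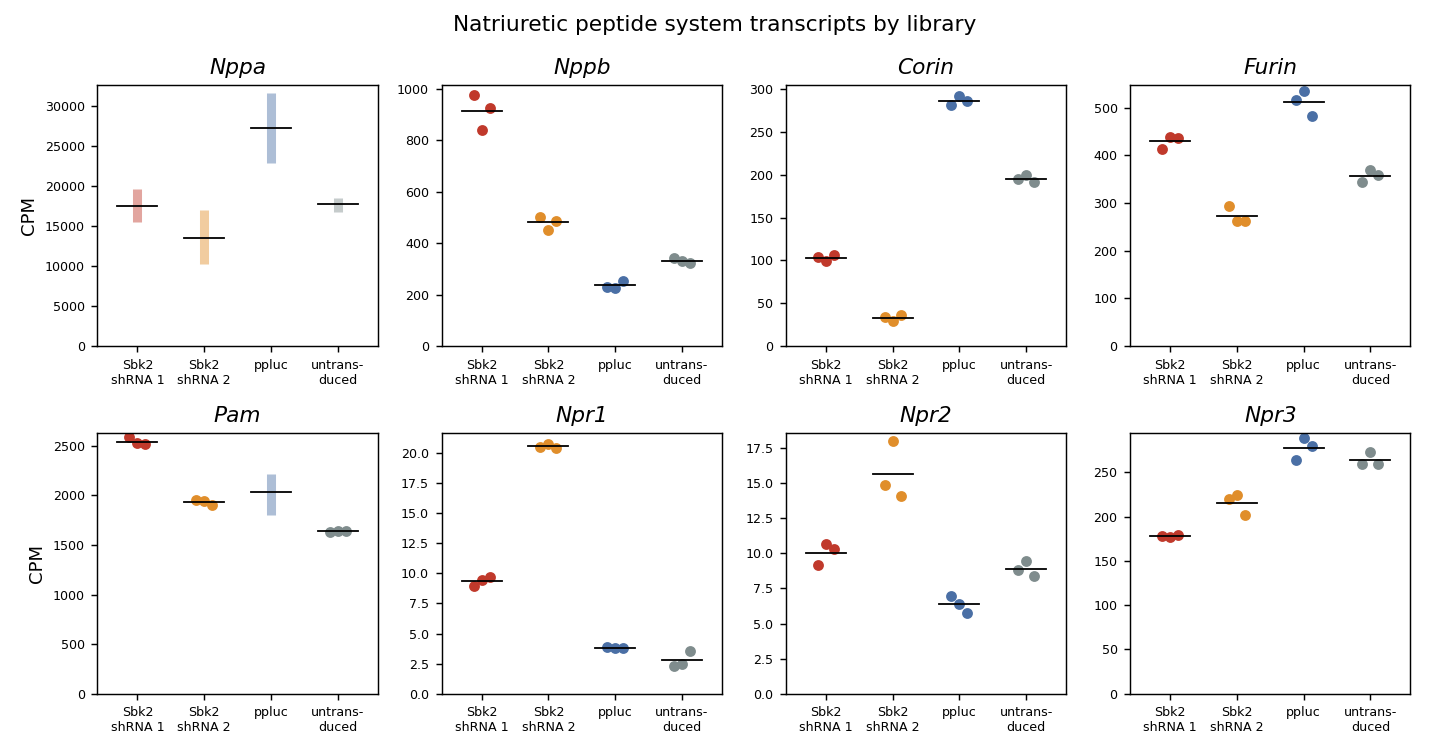
CPM of each gene by library (points, 3 a group) with the group mean (line), for Sbk2 shRNA 1, Sbk2 shRNA 2, ppluc and untransduced cells. Bars for Nppa, and for Pam with ppluc, span the library values that the deposited mean allows within the usual spread. Nppb and Npr1 are high and Corin is low with both Sbk2 shRNAs.

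Nppb rose with both Sbk2 shRNAs against ppluc, and ppluc cells themselves lay below untransduced cells. Its libraries held 978.1, 839.3 and 927.1 CPM with shRNA 1, and 502.7, 453.3 and 486.9 CPM with shRNA 2. They held 229.5, 226.6 and 253.3 CPM with ppluc, and 342, 329.7 and 324.2 CPM untransduced. In CPM as deposited, no group overlapped another, and both knockdown groups stood above the untransduced cells as well. After trimmed-mean scaling shRNA 2 stood at 0.51 against ppluc, and ppluc at -0.44 against untransduced cells. On that scale shRNA 2 thus lay near untransduced cells, against which it was not tested alone. Against ppluc the change was 1.95 ± 0.06 with shRNA 1 (limma adjusted p = 1.3e-14) and 1.02 ± 0.06 with shRNA 2 (limma adjusted p = 1.2e-11; 0.51 after trimmed-mean scaling). Against untransduced cells, both shRNAs together gave 1.00 ± 0.05 (limma adjusted p = 2.7e-12; 0.65 after scaling). The ppluc vector by itself gave -0.49 ± 0.06 against untransduced cells (limma adjusted p = 1.7e-06), so that the rise over ppluc is larger than that over untransduced cells.

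Nppa, in contrast, was lower with the Sbk2 shRNAs than with ppluc, and its change against untransduced cells passed only under some settings. The authors' means were 17455 CPM with shRNA 1, 13572 with shRNA 2, 27264 with ppluc and 17825 in untransduced cells. Nppa is so abundant that several sets of library reads return each stored mean, so no single library is printed for it. Over the sets that stay within the usual spread, libraries lie between 15468 and 19705 CPM with shRNA 1, between 10295 and 16972 with shRNA 2, between 22848 and 31598 with ppluc and between 16747 and 18465 untransduced. The ppluc range overlaps no other, and the other 3 ranges overlap each other. The width of these ranges largely follows from the limit set on the spread. They therefore do not show that single libraries stood apart. With the most widely spread sets, both shRNAs against ppluc gave -0.83 ± 0.15 (limma adjusted p = 6.2e-05), and with the narrowest -0.82 ± 0.09 (limma adjusted p = 7.9e-08). Against untransduced cells the change of -0.22 ± 0.15 did not pass with the widest sets (limma adjusted p = 0.18, 95% interval -0.54 to 0.10) and passed with the narrowest (-0.21 ± 0.09, limma adjusted p = 0.033) and after trimmed-mean scaling (-0.57, limma adjusted p = 0.0048). The ppluc cells were above untransduced cells by 0.61 ± 0.18 (limma adjusted p = 0.0067; adjusted p = 0.13 without a filter on low values). With shRNA 1 against ppluc the change was -0.64 ± 0.18 (limma adjusted p = 0.0031; 0.091 without that filter), and with shRNA 2 it was -1.02 ± 0.18 (limma adjusted p = 2.8e-05).

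The balance of the peptide transcripts differed between groups likewise. On the authors' TPM means there were 12.8 Nppa transcripts for each of Nppb with shRNA 1 and 19.2 with shRNA 2, against 78 with ppluc and 36.8 in untransduced cells. Nppb made up 4.98% of the CPM of both genes with shRNA 1 and 3.42% with shRNA 2, against 0.86% with ppluc and 1.83% untransduced. Nppa alone took 1.75% and 1.36% of all assigned reads with shRNA 1 and shRNA 2, and 2.73% and 1.78% with ppluc and untransduced. A ratio of means has no error of its own here, since the Nppa libraries are ambiguous.

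Corin, the membrane protease that cuts the Nppa precursor at the myocyte surface, fell with both Sbk2 shRNAs, and with shRNA 2 its change was the largest of the 8 genes. Its libraries held 103.9, 99.55 and 105.9 CPM with shRNA 1 and 34.07, 29.34 and 36.56 CPM with shRNA 2. With ppluc they held 281.3, 291.9 and 286.3 CPM, and untransduced 195, 199.7 and 191.1 CPM. The groups stood fully apart, with shRNA 2 lowest and ppluc highest. Corin fell by 1.47 ± 0.06 with shRNA 1 (limma adjusted p = 4.3e-13) and fell by 3.09 ± 0.06 with shRNA 2 (limma adjusted p = 5.5e-18) against ppluc. Both shRNAs together also stood below untransduced cells, at -1.73 ± 0.05 (limma adjusted p = 1.2e-15), while ppluc was above them by 0.55 ± 0.06 (limma adjusted p = 4.1e-07). Corin lies on chromosome 14 from 38247791 to 38473648.

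Furin, on chromosome 1 from 142185094 to 142197182, encodes a proprotein convertase of the secretory pathway that cuts the Nppb precursor among many others. It fell less than Corin did. Its libraries held 413.4, 439.1 and 437.6 CPM with shRNA 1 and 294.3, 262.5 and 262.1 CPM with shRNA 2. With ppluc they held 517.1, 534.5 and 482.2 CPM, and untransduced 343.7, 370.3 and 359.5 CPM. In CPM as deposited, the knockdown libraries lay below every ppluc library. Those of shRNA 1 lay above every untransduced library and those of shRNA 2 below. After trimmed-mean scaling shRNA 1 stood at -0.52 against ppluc, and ppluc at 0.56 against untransduced cells. On that scale shRNA 1 thus lay near untransduced cells, against which it was not tested alone. Against ppluc the changes were -0.25 ± 0.05 with shRNA 1 (limma adjusted p = 0.00052; -0.52 after trimmed-mean scaling) and -0.90 ± 0.05 with shRNA 2 (limma adjusted p = 1.8e-11; -1.42 after scaling). The mean of both shRNAs did not differ detectably from untransduced cells as deposited (-0.06 ± 0.05, 95% interval -0.16 to 0.04, limma adjusted p = 0.22). It was lower after trimmed-mean scaling (-0.41, limma adjusted p = 6.2e-07) and without 1 library of shRNA 2 (-0.09, limma adjusted p = 0.038).

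Within a library, where scaling cancels, reads of Furin stood to those of Corin at 3.98, 4.13 and 4.41 with shRNA 1 and at 7.17, 8.64 and 8.95 with shRNA 2. The ratios were 1.68, 1.83 and 1.84 with ppluc and 1.76, 1.85 and 1.88 untransduced. All 6 knockdown libraries exceeded all 3 of ppluc, by 1.70 on the log2 scale (exact two-sided permutation test over 84 splits, p = 0.012, the smallest these numbers allow). The library values of Furin and Corin given above already fixed this separation and its p-value. They add nothing to the results of the single genes. The ppluc and untransduced ratios overlapped.

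Pam encodes the enzyme that amidates peptide ends and, in atrial myocytes, is a major protein of the granule membrane. It lies on chromosome 9 from 111028575 to 111177602. Its libraries held 2584, 2523 and 2516 CPM with shRNA 1, 1951, 1946 and 1902 with shRNA 2, and 1628, 1640 and 1641 untransduced. With ppluc, 2 sets of reads return the stored mean of 2035 CPM, one within 1987 to 2083 CPM and one within 1804 to 2213 CPM. The shRNA 1 libraries were the highest, and those of shRNA 2 lay inside the wider ppluc range. Relative to ppluc, Pam stood at 0.33 ± 0.07 with shRNA 1 (limma adjusted p = 0.00048) and at -0.07 ± 0.07 with shRNA 2 (limma adjusted p = 0.37, 95% interval -0.22 to 0.08), both with the wider set. These calls turn on scaling. After trimmed-mean scaling Pam stood at 0.05 with shRNA 1 (limma adjusted p = 0.56) and at -0.58 with shRNA 2 (limma adjusted p = 8.9e-07), and the mean of both was -0.27 (limma adjusted p = 0.0011) against 0.13 as deposited (limma adjusted p = 0.062; 0.016 with the narrower set). Pam was higher with shRNA 1 than with shRNA 2 (0.39 ± 0.07, limma adjusted p = 5.6e-05; 0.64 after scaling). Both shRNAs together stood above untransduced cells by 0.44 ± 0.06 (limma adjusted p = 2.9e-06), a call lost after scaling (0.09, limma adjusted p = 0.22), and ppluc stood above them by 0.31 ± 0.07 (limma adjusted p = 0.0012).

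The receptors did not move as a block, as the cyclase receptor genes Npr1 and Npr2 rose and the clearance receptor gene Npr3 fell. Npr1, on chromosome 2 from 189840403 to 189856090, held 8.984, 9.441 and 9.724 CPM with shRNA 1, and 20.48, 20.75 and 20.42 CPM with shRNA 2. It held 3.914, 3.8 and 3.809 CPM with ppluc, and 2.299, 2.463 and 3.591 CPM untransduced, where the lowest library had 71 reads of it. The groups followed each other without overlap from untransduced, the lowest, to shRNA 2, the highest. Npr1 rose by 1.19 ± 0.12 with shRNA 1 (limma adjusted p = 6.6e-08) and by 2.28 ± 0.12 with shRNA 2 (limma adjusted p = 2.6e-12) against ppluc. The ppluc cells were themselves above untransduced cells by 0.42 ± 0.12 (limma adjusted p = 0.0059).

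Npr2 lies on chromosome 5 from 59128315 to 59147255, far from the peptide genes. Its libraries held 9.183, 10.63 and 10.27 CPM with shRNA 1 and 14.83, 17.97 and 14.07 CPM with shRNA 2. With ppluc they held 6.967, 6.419 and 5.724 CPM, and untransduced 8.84, 9.422 and 8.409 CPM. Both knockdown groups lay above ppluc, and shRNA 1 overlapped the untransduced libraries. Against ppluc the change was 0.62 ± 0.11 with shRNA 1 (limma adjusted p = 4.2e-05; 0.36 after trimmed-mean scaling) and 1.23 ± 0.11 with shRNA 2 (limma adjusted p = 3.1e-09; 0.74 after scaling). The ppluc cells were themselves below untransduced cells (-0.45 ± 0.11, limma adjusted p = 0.0014). Both shRNAs together stood 0.47 ± 0.09 above untransduced cells (limma adjusted p = 0.00013), a call lost after trimmed-mean scaling (0.13, limma adjusted p = 0.17).

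Npr3, on chromosome 2 from 61888950 to 61949926, held 178.4, 177.5 and 179 CPM with shRNA 1 and 219.7, 224.4 and 201.9 CPM with shRNA 2. It held 264.3, 289.1 and 279.8 CPM with ppluc and 259.8, 273.2 and 259.8 CPM untransduced. Every knockdown library lay below every control library, while ppluc and untransduced overlapped (0.07 ± 0.05, 95% interval -0.03 to 0.17, limma adjusted p = 0.22; 0.12 after trimmed-mean scaling, limma adjusted p = 0.049). Npr3 fell by 0.64 ± 0.05 with shRNA 1 (limma adjusted p = 1.3e-09) and fell by 0.37 ± 0.05 with shRNA 2 (limma adjusted p = 9.9e-07; -0.88 after scaling) against ppluc.

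The transcript ratio of the clearance receptor to the Npr1 receptor accordingly narrowed. Reads of Npr3 stood to those of Npr1 at 18.4, 18.8 and 19.9 in the shRNA 1 libraries and at 9.89, 10.7 and 10.8 with shRNA 2. They stood at 67.5, 73.5 and 76.1 with ppluc and at 72.3, 111 and 113 untransduced. The difference between knockdown and ppluc libraries was -2.23 on the log2 scale (exact two-sided permutation test over 84 splits, p = 0.012, the smallest these numbers allow). Every knockdown library already lay below every ppluc library for Npr3 and above every one for Npr1. The separation of the ratio and its p-value were thereby fixed, and they add nothing to the results of the single genes. Per length, on the authors' TPM means, Npr3 still exceeded Npr1 by 39.2 times with shRNA 1 and 20.2 times with shRNA 2, against 148 times with ppluc and 189 times untransduced. On the same scale Npr1 stood to Npr2 at 0.939 and 1.3 with shRNA 1 and shRNA 2, and at 0.587 and 0.306 with ppluc and untransduced.

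**Figure D3:**
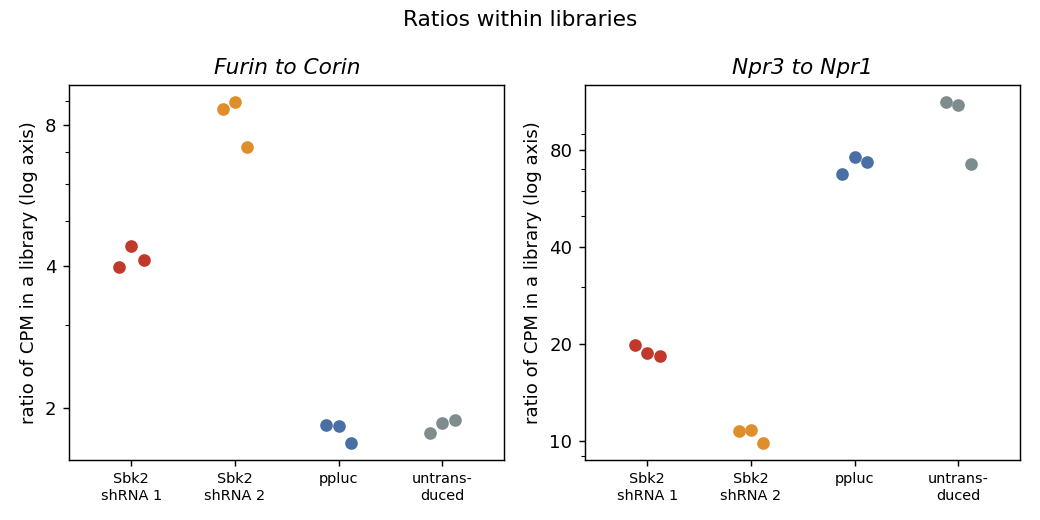
Ratio of CPM within each library (log axes) of Furin to Corin (left) and Npr3 to Npr1 (right), 3 libraries a group, with Sbk2 shRNA 1, Sbk2 shRNA 2, ppluc and untransduced cells. The knockdown libraries lie at 3.98 to 8.95 against 1.68 to 1.84 with ppluc on the left, and at 9.89 to 19.9 against 67.5 to 76.1 with ppluc on the right.

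The effects of the 2 shRNAs differed in size. With shRNA 1 against shRNA 2, limma called 81.0% of tested genes (27.8% higher, 53.3% lower) and 81.1% did not overlap. All 6 unambiguous genes kept apart, and of them Nppb, Corin and Furin were higher and Npr1, Npr2 and Npr3 lower. Nppb stood 0.93 ± 0.06 higher with shRNA 1 (limma adjusted p = 7.4e-11) and Corin 1.62 ± 0.06 higher (limma adjusted p = 2.9e-14). Npr1 stood at -1.09 ± 0.12 (limma adjusted p = 1.3e-07), Npr2 at -0.61 ± 0.11 (limma adjusted p = 3.7e-05; -0.38 after scaling) and Furin at 0.66 ± 0.05 (limma adjusted p = 2.7e-09). Nppa, at 0.38 ± 0.18 with the widest sets, did not pass (limma adjusted p = 0.055, 95% interval 0.01 to 0.75) but passed with the narrowest (0.36 ± 0.10, limma adjusted p = 0.0031) and, at 0.62, after scaling. The gap in Npr3 (-0.27 ± 0.05, limma adjusted p = 4.8e-05) did not pass after trimmed-mean scaling (-0.03, limma adjusted p = 0.59). Nppb thus changed more with shRNA 1, and Corin, Furin, Npr1 and Npr2 more with shRNA 2. The control vector cells differed from untransduced cells in 5 of the 6. In ppluc against untransduced, where 57.2% of tested genes were called (24.9% higher, 32.3% lower), Corin, Furin and Npr1 were higher and Nppb and Npr2 lower. The comparisons with ppluc share its 3 libraries, so a high or low ppluc level enters each of them.

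The other genes listed as markers of atrial myocytes were lower with the Sbk2 shRNAs, as Nppa was. This list was not limited to genes particular to atrial muscle, and the summed ventricular markers were lower as well. With both shRNAs against ppluc, 18.8% of all tested genes were called lower, and 38.4% after trimmed-mean scaling. Nppa aside, 7 of 7 listed markers (Myl4, Myl7, Sln, Myh6, Tnnt2, Actc1 and Ryr2) fell in that comparison, Myh6 with its widest read sets. Their summed level was 16495 to 17291 CPM with shRNA 1 and 6309 to 8194 with shRNA 2, against 42274 to 45888 with ppluc and 56718 to 62387 untransduced, with the widest read sets for the most abundant. Ventricular Myl2 and Irx4 had at most 0.02989 CPM in any group. Of the markers of other cell types, the endothelial Cdh5 and Emcn, the fibroblast Lum and Tcf21 and the immune Ptprc were at 0 in all 4 groups. The 5 endothelial and endocardial markers found summed to 230.6 to 247.2 CPM with shRNA 1 and 82.87 to 121.1 with shRNA 2, against 155.7 to 165.6 with ppluc and 138.9 to 161.5 untransduced, most of it Kdr. The 6 fibroblast markers summed to 24.97 to 28.93 and 14.65 to 20.35 CPM with shRNA 1 and shRNA 2, against 115.8 to 149.2 and 76.93 to 88.37 CPM with ppluc and untransduced. The 4 smooth muscle markers summed to 9803 to 10845 CPM with shRNA 1 and 6378 to 8189 CPM with shRNA 2. They summed to 17508 to 18694 CPM with ppluc and 14517 to 14832 CPM untransduced, most of it Tagln and Acta2. Among them Myh11 went the other way with shRNA 2, at 17.62 CPM against 2.666 CPM with ppluc (2.52, limma adjusted p = 1.7e-11), and had 2.022 CPM with shRNA 1. The 4 ventricular markers summed to 28.84 to 34.56 and 7.415 to 9.147 CPM with shRNA 1 and shRNA 2, against 137.4 to 168.5 and 230.4 to 270.5 CPM with ppluc and untransduced. The 3 epicardial markers summed to 38.05 to 41.78 and 4.846 to 7.35 CPM with shRNA 1 and shRNA 2, against 29.32 to 33.3 and 19.36 to 21.75 CPM with ppluc and untransduced, and the 4 immune markers to at most 1.208 CPM in any library. The part of these markers' levels in the changes of the natriuretic genes was not tested.

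Of 9 listed genes around the peptide genes 7 were tested, and 4 rose and 0 fell in the mean of both shRNAs against ppluc. These counts stand beside 64.4% higher and 18.8% lower of all tested genes, so that the share that rose is near that of all genes. After trimmed-mean scaling 2 rose and 3 fell, beside 38.5% and 38.4% of all, and the median was 0.23 as deposited, beside 0.37 over all genes. Agtrap, which encodes a protein that binds the angiotensin receptor, held 42.41 CPM with shRNA 1 and 23.83 with shRNA 2, against 15.44 with ppluc and 22.74 untransduced (authors' means). It rose by 1.43 ± 0.08 with shRNA 1 and 0.60 ± 0.08 with shRNA 2 against ppluc (limma adjusted p = 1.9e-11 and 8.7e-07; with shRNA 2 only 0.10 after scaling, adjusted p = 0.24). Plod1, a collagen lysyl hydroxylase gene, rose by 0.71 ± 0.07 in the mean of both (limma adjusted p = 9.8e-09; 0.32 after scaling). In that mean Mad2l2 rose by 0.47 ± 0.09 (limma adjusted p = 0.00015; 0.09 after scaling, adjusted p = 0.38). Fbxo6 rose by 0.23 ± 0.05 (limma adjusted p = 0.00034; -0.16 after scaling), and with shRNA 1 alone it did not pass (0.12, limma adjusted p = 0.082). Clcn6, the gene next to Nppa on the side away from Nppb, stood at 0.07 ± 0.05 (limma adjusted p = 0.20; -0.32 after scaling, adjusted p = 1.7e-05). It differed between the shRNAs, at 0.31 ± 0.06 with shRNA 1 (limma adjusted p = 9.9e-05; 0.04 after scaling, adjusted p = 0.62) and -0.17 ± 0.06 with shRNA 2 (limma adjusted p = 0.011; -0.68 after scaling, adjusted p = 5.1e-09). The test of that difference gave 0.47 ± 0.06 (limma adjusted p = 4.2e-07; 0.71 after scaling).

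**Figure D4:**
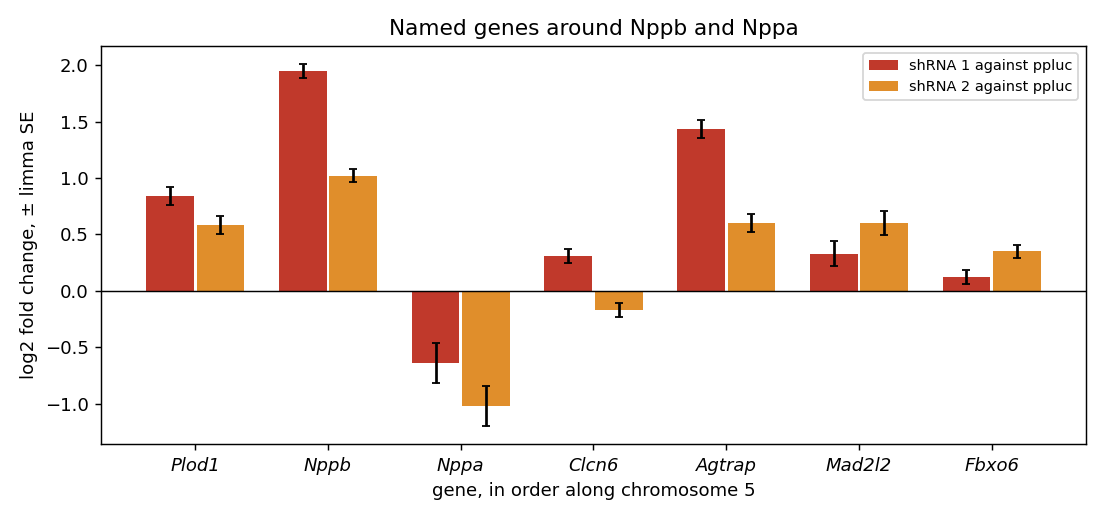
Log2 fold change (± limma SE) of the genes named here around Nppb and Nppa, in their order on chromosome 5, with Sbk2 shRNA 1 and shRNA 2 against ppluc, as deposited. Nppb rises by 1.95 and 1.02 beside Nppa at -0.64 and -1.02, whose values use the widest read sets.

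Factors reported at natriuretic peptide promoters went both ways. Of 27 listed, 23 were tested, and 11 rose and 8 fell in the mean of both shRNAs against ppluc. These counts stand beside 64.4% higher and 18.8% lower of all tested genes, and not every gene counted moved alike with each shRNA. After scaling 8 rose and 14 fell, beside 38.5% and 38.4% of all, and the median as deposited was -0.03, beside 0.37 over all genes. Jun, a subunit of AP-1, stood at 242.6 CPM with shRNA 1 and 349.6 with shRNA 2, against 87.88 with ppluc (1.72 ± 0.04 for both, limma adjusted p = 1.5e-16). Atf3, a stress-induced factor, stood at 10.72 and 35.43 CPM with shRNA 1 and shRNA 2, against 1.658 CPM with ppluc (3.22 ± 0.12, limma adjusted p = 7.6e-14). Mef2a, a muscle factor, fell by 1.11 ± 0.04 (limma adjusted p = 1.7e-14) and Tbx20, a cardiac T-box factor, fell by 0.84 ± 0.04 (limma adjusted p = 5.4e-12).

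Of 12 tested genes of cyclic GMP signalling and peptide breakdown, 3 rose and 7 fell in the mean of both shRNAs against ppluc. These counts stand beside 64.4% higher and 18.8% lower of all tested genes. After scaling 1 rose and 10 fell, beside 38.5% and 38.4% of all, and the median was -0.30 as deposited, beside 0.37 over all genes. Pde2a, a phosphodiesterase that cyclic GMP stimulates, stood at 190.3 CPM with shRNA 1 and 77.66 with shRNA 2, against 255.2 with ppluc (-1.08 ± 0.08, limma adjusted p = 2.6e-10). Abcc4, an exporter of cyclic nucleotides, fell by 0.73 ± 0.04 (limma adjusted p = 1.1e-11; -1.13 after scaling), and Ide, a protease that degrades insulin and natriuretic peptides, fell by 0.69 ± 0.04 (limma adjusted p = 2.2e-11; -1.08 after scaling). Pde3b, a phosphodiesterase that cyclic GMP inhibits, rose by 0.82 ± 0.04 (limma adjusted p = 3e-12; 0.43 after scaling). Nppc, the C-type peptide gene, was at 0 in the shRNA 2 and ppluc groups and at most 0.05395 CPM elsewhere, and Ostn and Mme were at 0 throughout.

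Of 10 tested genes of precursor processing and secretory granules, 5 rose and 3 fell in the mean of both shRNAs against ppluc. These counts stand beside 64.4% higher and 18.8% lower of all tested genes. After scaling 0 rose and 7 fell, where 38.5% and 38.4% of all did so, and the median of 0.11 as deposited compares with 0.37 over all genes. Cpd, a carboxypeptidase, fell by 0.55 ± 0.05 (limma adjusted p = 5.7e-09; -0.95 after scaling) and the convertase Pcsk5 fell by 0.74 ± 0.14 (limma adjusted p = 0.00012). Galnt2, which adds O-linked sugars, rose by 0.26 ± 0.04 (limma adjusted p = 1.3e-05), and Rab3a, a regulator of vesicle release, by 0.42 ± 0.07 (limma adjusted p = 1.7e-05). After scaling Galnt2 stood at -0.14 and Rab3a at 0.04. As deposited, each of the 4 passed with 1 shRNA and missed the threshold with the other. After scaling the values that had missed it passed, those of Galnt2 and Rab3a as falls. With shRNA 1, Cpd stood at -0.10 (limma adjusted p = 0.11; -0.38 after scaling, adjusted p = 1.8e-05), Galnt2 at 0.00 (limma adjusted p = 0.99; -0.27 after scaling, adjusted p = 3.6e-05) and Rab3a at 0.01 (limma adjusted p = 0.95; -0.26 after scaling, adjusted p = 0.0068). With shRNA 2, Pcsk5 stood at 0.00 (limma adjusted p = 0.98; -0.45 after scaling, adjusted p = 0.017). The rise of Galnt2 with shRNA 2 (0.52, limma adjusted p = 7.5e-09) was lost after scaling (0.00, adjusted p = 0.97). Pcsk6, a convertase reported to activate corin, had at most 0.02024 CPM.

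Transcripts often read beside the natriuretic peptides in hypertrophy went both ways. Of 10 tested, 4 rose and 6 fell in the mean of both shRNAs against ppluc. These counts stand beside 64.4% higher and 18.8% lower of all tested genes, and not every gene counted moved alike with each shRNA. After scaling 3 rose and 6 fell, beside 38.5% and 38.4% of all, and the median as deposited was -0.18, beside 0.37 over all genes. Ctgf, a matrix-associated growth factor gene, stood at 628.5 CPM with shRNA 1 and 327.2 with shRNA 2, against 183.8 with ppluc (1.30 ± 0.05, limma adjusted p = 1.1e-13). The myosin gene Myh7 fell by 3.17 ± 0.08 (limma adjusted p = 1.5e-16), and Myh6, whose libraries are ambiguous, held 3104 and 851.7 CPM with shRNA 1 and shRNA 2 against 15060 CPM with ppluc. The handling of reads shared by near-identical myosin or actin genes was not given in the sources used here. Acta1, skeletal actin, differed between the shRNAs (3.44 ± 0.06, limma adjusted p = 4.6e-18), with 217.9 CPM for shRNA 1 and 19.64 CPM for shRNA 2, against 192.5 CPM with ppluc. Though counted as fallen, with shRNA 1 alone it was higher than with ppluc (0.17, limma adjusted p = 0.022; -0.10 after scaling, adjusted p = 0.19).

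Genes with the most similar pattern were sought among 11278 tested genes with a symbol, by the distance of centred log2(CPM + 0.5) profiles over the 4 group means. Nearest to Nppa were Pcolce (distance 0.0893), Tpm2 (0.107) and Trpc6 (0.122). Ctgf (0.153), Azin2 (0.211) and Slc7a8 (0.239) were nearest to Nppb. The nearest to Corin were Emp2 (0.206), Lifr (0.34) and Myh3 (0.353), those to Furin Elovl1 (0.0844), Serinc2 (0.0933) and Surf4 (0.101), and those to Pam Klf10 (0.00929), Trim28 (0.0334) and Atp11b (0.0517). For the receptors they were Tmem243 (0.129), Gch1 (0.137) and Sdc4 (0.147) for Npr1, March7 (0.0341), Cnih4 (0.0525) and Nfatc4 (0.0534) for Npr2, and B3galt2 (0.0363), Clec2g (0.0572) and Bmi1 (0.0683) for Npr3. With 4 groups, many genes share such a pattern, and the distances describe these means only.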

How the data were processed

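PolyA-selected, strand-specific RNA libraries of 12 samples were sequenced as paired 150-bp reads, per the labels' protocols. The authors deposited CPM and TPM values averaged over the 3 libraries of each group. Rnor_6.0 and DESeq2 appear in the submitters' processing notes, with the aligner and counting tool not given in the sources used here. Starts in the deposited locus table were taken to count from 0, and 1 was added.

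Library totals were found from the 3 most frequent values above 0 in a group, each 1 read in 1 library. Whole read triples returning the deposited CPM mean to the last bit were then listed by lattice reduction. A single triple was found for 99.81 to 99.92% of features, 0 of 1000 shifted control values per group had one, and the method was tested on simulated data. Where several triples returned a mean, those beyond the usual spread (its 99th percentile) were dropped, which left a single triple for 19 to 31 further features per group. Where several still remained (2 to 34 features per group, Nppa and Pam among them), the widest was used. The plan was to leave such genes untested, so Nppa and the ppluc comparisons of Pam are kept out of the counts of the unambiguous genes. They are given with the widest and, where it changes a value, the narrowest triples. Other ambiguous genes, Myh6 among them, stayed in the counts of the lists, the markers and all tested genes with their widest triples.

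The fit took the 12493 genes that reached 0.5 CPM in 3 or more libraries. Their log2(CPM + 0.5) entered limma 3.58.1 (R 4.3.3, moderated variances following a trend on mean level, group means as coefficients), with Benjamini-Hochberg adjustment over all genes, called under 0.05, in 6 comparisons. Ratios within libraries were tested by exact permutation. Other pseudocounts, filters, scalings, voom weights, only the compared groups, and each library left out were tried. Intervals cover the spread between these libraries only. From each of 5 gene lists, up to 4 members with the smallest p for both shRNAs against ppluc are named. The 3 nearest profiles of each of the 8 genes are named too. Clcn6, Nppc, Ostn, Mme, Pcsk6 and Myh11 were named after their values were seen. The genes and lists were chosen with earlier results of these data known. Irag1 and Ccn2 repeat Mrvi1 and Ctgf and were counted once. Prkg1, Serpina3n and Pecam1 were not analysed here, and 1 gene near Nppa is not reported here by name. Promoters are from RefSeq (GRCr8). Python 3.11.15, numpy 2.4.6, pandas 2.3.3 and matplotlib 3.10.9 did the rest.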

Additional observations from a re-analysis of the deposited data

Results flagged for a closer look

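The effects of the 2 Sbk2 shRNAs against the same ppluc libraries differed by the limma test of the difference itself for Pam and the 6 unambiguous genes, in a comparison where 81.0% of tested genes were called. As the effect of shRNA 1 minus that of shRNA 2, the difference was 0.93 for Nppb, 1.62 for Corin, 0.39 for Pam and 0.66 for Furin. It was -1.09 for Npr1, -0.61 for Npr2 and -0.27 for Npr3. For each of these 7 genes the 3 libraries of shRNA 1 lay all above or all below the 3 of shRNA 2. The same held for 81.1% of all tested genes. Nppa, whose libraries are ambiguous, missed the threshold with the widest read sets (0.38, limma adjusted p = 0.055) and passed with the narrowest (0.36, limma adjusted p = 0.0031) and after trimmed-mean scaling (0.62, limma adjusted p = 0.0076). The difference in Npr3 was -0.03 and did not pass after trimmed-mean scaling.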

How the results depend on the processing

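Of 768 values of the 8 genes under alternatives, 733 kept direction and call, 23 gained a call, 10 lost one and 2 turned. The 2 that turned were Pam with both shRNAs against ppluc, at -0.27 after trimmed-mean and -0.27 after median-of-ratios scaling. Of 576 values of the 6 unambiguous genes, 568 kept both. Those that did not were Npr3 between the shRNAs and in ppluc against untransduced cells, and Npr2 and Furin of both shRNAs against untransduced cells, all under scaling, and Furin without 1 library. Median-of-ratios scaling gave -0.42 for Furin and 0.13 for Npr2 there. Without a filter on low values, Nppa with shRNA 1 against ppluc missed the threshold (-0.64, limma adjusted p = 0.091), and so did Nppa with ppluc against untransduced cells (limma adjusted p = 0.13). The narrowest triples were an alternative chosen after seeing the data; they brought Nppa between the shRNAs past the threshold (0.36, limma adjusted p = 0.0031, against 0.055 with the widest) and Pam with both shRNAs (0.12, limma adjusted p = 0.016). With the widest read sets and without 1 library of shRNA 2 (c), Nppa passed between the shRNAs (0.55, limma adjusted p = 0.0035) and against untransduced cells (-0.31, limma adjusted p = 0.029). The Nppa value of that library is not settled, so these fits show only what the chosen set gives. Pam with both shRNAs against ppluc passed without library a of shRNA 2 (0.12, limma adjusted p = 0.037) or without library c of ppluc (0.19, limma adjusted p = 0.014). Pam with shRNA 2 against ppluc passed without ppluc library b (-0.15, limma adjusted p = 0.04). The ppluc values of Pam in these fits are those of the wider set, which is not settled either. Leaving out a library moved the Npr3 to Npr1 difference between -2.33 and -2.14 and the Furin to Corin difference between 1.58 and 1.81. All 96 alternative counts of genes called stayed within 1.5 times the main count, but for both shRNAs against ppluc the split of 8050 higher and 2343 lower became 4811 and 4796 after trimmed-mean scaling. The cause of these shifts was not tested. No paired analysis was possible because the recovered libraries carry no replicate number. For Npr1 and Npr2, 71 to 750 reads per library limit precision.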

Other observations

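The large T antigen transgene shared by all groups stood at 8.54 to 10.1 CPM with shRNA 1 and 18.8 to 19.7 CPM with shRNA 2, against 7.95 to 9.05 CPM with ppluc and 10.5 to 13 CPM in untransduced libraries. Its part in the levels of the natriuretic genes was not tested.

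Among the genes listed beside Nppa, Miip had 0 CPM in every group but 6.821 to 13.07 TPM in the authors' tables, and Mfn2 had 0.7396 to 1.182 CPM but 75.52 to 116.2 TPM. For the 8 natriuretic genes the tables lay close, with log2 changes between groups differing by at most 0.16 (Npr3, shRNA 1 over shRNA 2).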
